A study of Mus musculus with 11 samples.

Results

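The 10 genes described here are Fos, Fosb, Fosl1, Fosl2, Jun, Junb, Jund and Atf3, whose proteins build the transcription factor AP-1 or join it, together with the immediate-early genes Egr1 and Ier2. They were chosen by name, and all 10 were found among the 47643 gene symbols of the deposited expression table, which holds RPKM values (reads per transcript length, scaled to the mapped reads of each library) for 11 RNA-seq libraries. All 10 also passed the filter on low values (at least 1 RPKM in at least 2 libraries), which kept 11979 genes for testing.

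The libraries came from mouse back skin fibroblasts of female wild-type (WT) mice and of littermates carrying an INHBA transgene under the keratin 14 promoter (Act), which makes keratinocytes secrete the growth factor activin A. All animals were F1 mice of a CD-1 and C57BL/6 cross aged 9 to 12 weeks. Cells were taken from normal unwounded skin (NS) or from full-thickness excisional wounds 5 days after wounding (5dw), with 3 libraries each for WT NS, Act NS and WT 5dw and 2 for Act 5dw, numbered 1 and 3 because the submitters left out library 2 at quality control. Tissue of all 4 groups was minced, digested with Liberase TL for 1 h at 37 °C and sorted for live CD140a+ cells that lacked leukocyte and macrophage surface proteins, and each library was made from the combined RNA of 3 animals. NS libraries were made from 100 ng of RNA and 5dw libraries from 200 ng, so that RNA input and wounding cannot be told apart.

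AP-1 is a dimer of bZIP proteins. Jun, JunB and JunD can pair with one another or with Fos, FosB, Fra-1 (encoded by Fosl1) and Fra-2 (encoded by Fosl2), whereas the Fos proteins need a Jun partner, and the dimers bind short palindromic DNA elements in genes for matrix proteases, cytokines and cell-cycle proteins. Most of these genes belong to the immediate-early class: growth factors, stress and tissue injury switch them on within minutes through MAP kinases and DNA-bound factors such as SRF and CREB, without new protein synthesis, and their mRNAs are short-lived. They are also known to be switched on when tissue is dissociated with enzymes at body temperature. No undigested tissue was measured here, and the part of the 1 h digestion in the levels below was not tested.

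The upstream sequence of 4 genes is shown because Fosb and Jun were near to Fos in their profiles over the libraries, whereas Junb, a close relative of Jun, was farther. The RefSeq table used here (build GRCm38.p6) held a promoter for 7 of the 10 genes. Each line gives the 250 bases before the start site, written 5′ to 3′ on the gene's own strand. They lie at chr12:85473640-85473889 on the + strand for Fos, chr7:19310046-19310295 on the - strand for Fosb, chr4:95052223-95052472 on the - strand for Jun and chr8:84978749-84978998 on the - strand for Junb. Capitals mark matches to the TATA box TATAAA, to the AP-1-like element TGACATCA and to TGACG, the core of the CREB site.
Fos: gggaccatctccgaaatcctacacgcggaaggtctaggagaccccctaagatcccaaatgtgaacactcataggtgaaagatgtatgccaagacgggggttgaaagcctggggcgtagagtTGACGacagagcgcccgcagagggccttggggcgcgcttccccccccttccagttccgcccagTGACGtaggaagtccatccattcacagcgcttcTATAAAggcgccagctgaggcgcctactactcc
Fosb: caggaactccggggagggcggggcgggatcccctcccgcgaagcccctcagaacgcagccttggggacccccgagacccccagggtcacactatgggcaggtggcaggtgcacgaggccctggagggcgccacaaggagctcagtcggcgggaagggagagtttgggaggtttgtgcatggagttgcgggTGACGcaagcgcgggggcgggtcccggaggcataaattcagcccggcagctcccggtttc
Jun: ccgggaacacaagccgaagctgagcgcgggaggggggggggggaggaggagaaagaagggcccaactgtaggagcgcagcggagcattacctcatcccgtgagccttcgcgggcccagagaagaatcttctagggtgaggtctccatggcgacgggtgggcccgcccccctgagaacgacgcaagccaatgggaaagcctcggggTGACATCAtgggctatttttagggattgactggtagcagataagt
Junb: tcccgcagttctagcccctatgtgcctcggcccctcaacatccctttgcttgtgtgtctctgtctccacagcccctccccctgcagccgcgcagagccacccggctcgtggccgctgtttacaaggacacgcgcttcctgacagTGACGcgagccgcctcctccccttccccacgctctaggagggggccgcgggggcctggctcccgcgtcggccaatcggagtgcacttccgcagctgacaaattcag

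Fos held 2 cores TGACG, at bases -129 to -125 and -66 to -62 counted from the start site, and a TATA box at -33 to -28. Fosb held 1 core at -60 to -56, Junb held 1 at -106 to -102, and Jun held TGACATCA at -45 to -38. Both strands were searched in the 250 bases before each of 32851 RefSeq start sites. TGACG was found in 17.8% of these promoters, TATAAA in 12.4% and TGACATCA in 2.93%. Among the 7 promoters of the genes described here, TGACG was in 4, TATAAA in 1 and TGACATCA in 1. The promoter with TGACG that is not shown was that of Atf3, with a match on the opposite strand at -7 to -3. The full CREB site TGACGTCA, which contains TGACG and was present in 1.55% of all promoters, the AP-1 element TGACTCA (4.46%), the EGR site GCGTGGGCG (0.536%) and the CArG box bound by SRF (1.47%) matched in none of the 7 promoters within this window. A match describes the letters of the sequence and shows no binding. Sequence outside the 250 bases was not searched, so a missing match, as for the CArG box, says nothing about sites farther from the start.

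Transcripts of these genes were among the most abundant in every library. Fos, the founding member of the family, had 1742, 1035 and 1176 RPKM in WT NS libraries 1 to 3 and 987, 1005 and 907 RPKM in Act NS. It had 1220, 1127 and 1337 RPKM in WT 5dw and 1136 and 1307 RPKM in Act 5dw. Fos was the highest of the 10 genes in each of the 11 libraries, and its place among all 47643 symbols lay between 11 and 35. Fosb ranked between 24 and 46, Egr1 between 23 and 52, Junb between 18 and 71, and Jun between 33 and 85. Atf3 (61 to 110), Ier2 (95 to 195) and Jund (112 to 213) followed, and Fosl1 (311 to 1066) and Fosl2 (655 to 1660) were lower. Together the 10 genes took between 1.32% and 2.26% of all mapped reads in a library. In a bulk sample of sorted cells, fewer cells making a transcript and less of it per cell cannot be told apart.

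**Figure D1:**
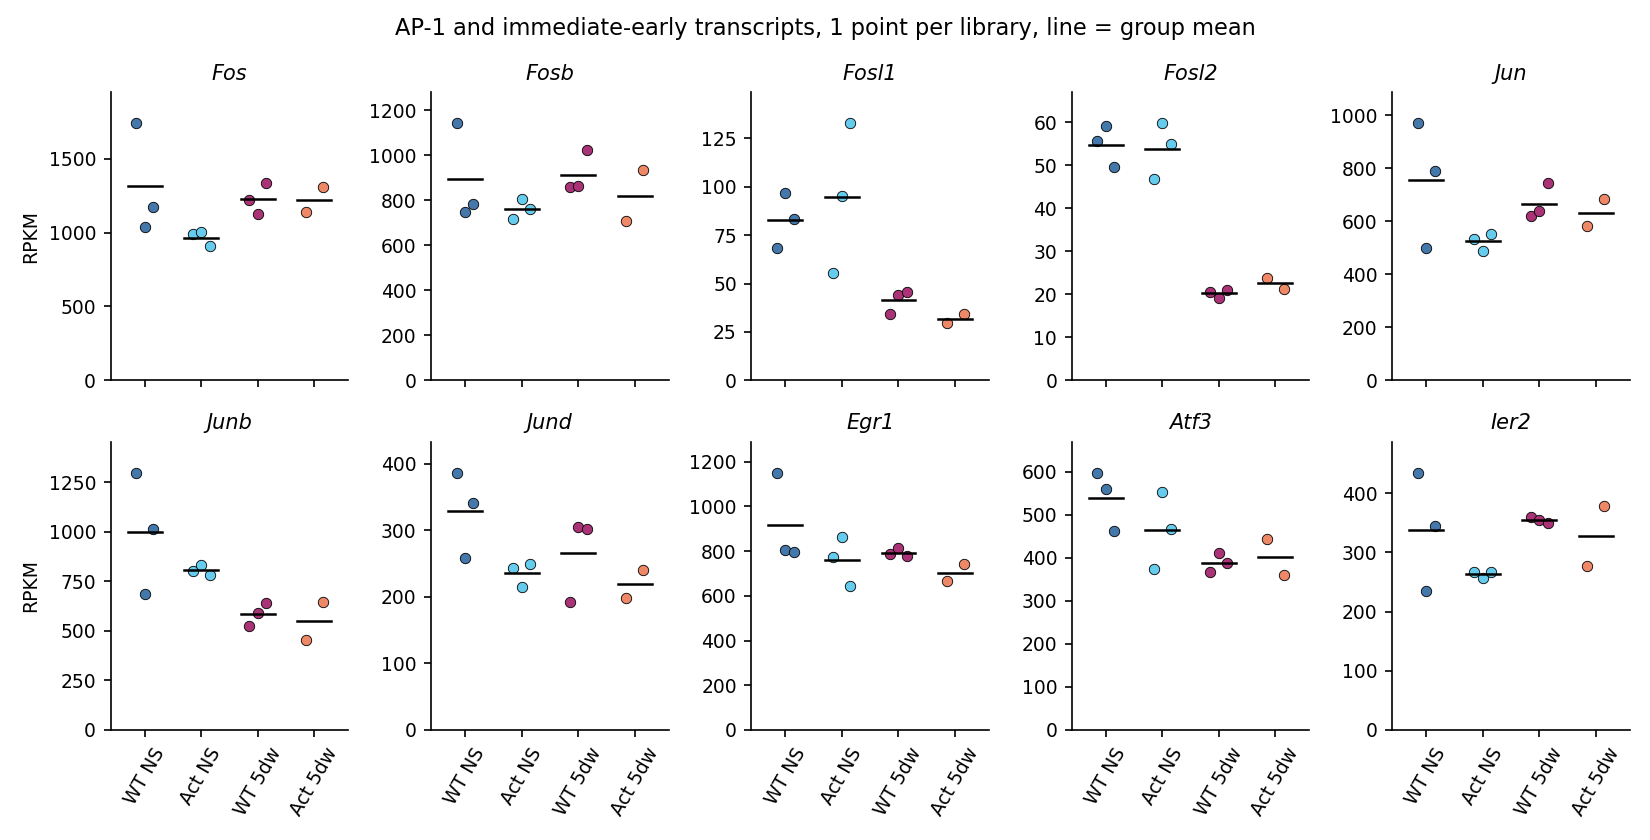
RPKM of each gene (vertical axes, each starting at 0) in the 4 groups, with 1 point per library and a line at the group mean. Fosl1, Fosl2 and Junb are lower in every 5dw library than in every NS library, whereas the other 7 genes overlap between NS and 5dw; the WT NS point farthest above its group for Fos, Fosb, Jun and Egr1 is library 1.

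Ranks, places and shares of different genes depend on the transcript length that RPKM divides by. The length implied by the RPKM values differed from the annotated exon length for some genes. Fosb had 3782 against 6243 bases and Jund 2878 against 1668 bases. By group mean RPKM, the order was Fos, Junb, Egr1, Fosb, Jun, Atf3, Ier2, Jund, Fosl1 and Fosl2 in WT NS. In WT 5dw it was Fos, Fosb, Egr1, Jun, Junb, Atf3, Ier2, Jund, Fosl1 and Fosl2. Junb thus held the second place in both NS groups and the fifth in both 5dw groups, while Fos, Atf3, Ier2, Jund, Fosl1 and Fosl2 kept their places. Several neighbours lay within each other's spread: in Act NS the means of Fosb (761 RPKM) and Egr1 (760 RPKM) were nearly equal, and in WT NS Ier2 (338 RPKM) and Jund (329 RPKM) overlapped, whereas every library had more Fosl1 than Fosl2 and less of either than of any other of the 10 genes.

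To ask how the wound changed these genes in fibroblasts, WT 5dw was compared with WT NS (limma on log2(RPKM + 0.5), adjusted over all 11979 genes). Wound fibroblasts had less Fosl2, Fosl1, Junb and Atf3 mRNA, and no gene of the 10 was called higher. Among all genes tested, 48.8% were called lower and 9.45% higher in this comparison, so that a count of 4 lower and 0 higher of 10 was close to the background. The median log2FC was -0.40 over all genes tested and -0.25 over the 10 genes. The members are therefore also given relative to the median of all genes.

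Fosl2 encodes Fra-2, an AP-1 subunit that lacks the strong activation domain of Fos. It had 55.5, 59.1 and 49.6 RPKM in WT NS, 46.8, 59.8 and 54.9 RPKM in Act NS, 20.5, 19.2 and 21 RPKM in WT 5dw, and 23.8 and 21.3 RPKM in Act 5dw. All 5 wound libraries were thus below all 6 libraries of unwounded skin, with a clear gap between 23.8 and 46.8 RPKM. Fosl2 fell by 1.41 on the log2 scale in WT (SE 0.13, adjusted p = 1.39e-05, limma), or to 0.376 of its level with a 95% interval of 0.31 to 0.457. Relative to the median of all genes its log2FC was -1.01. In Act mice the log2FC of Fosl2 between 5dw and NS was -1.23 (SE 0.14, adjusted p = 9.92e-05, limma), and -0.93 relative to the median of all genes. Fosl2 had the steadiest values of the 10 genes within groups (SD 0.13 on the log2 scale against a median of 0.20 over all genes tested), and it was called lower under each of the 24 alternative settings in both comparisons, with log2FC from -1.48 to -0.94 in WT and from -1.34 to -0.87 in Act.

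Fosl1 encodes Fra-1, the closest relative of Fra-2. It had 68.5, 96.8 and 83.4 RPKM in WT NS, 55.4, 95.3 and 133 RPKM in Act NS, 34.4, 44.2 and 45.4 RPKM in WT 5dw, and 29.4 and 34.5 RPKM in Act 5dw. The wound libraries again lay below all libraries of unwounded skin, but Act NS spread from 55.4 to 133 RPKM, and Fosl1 had the largest within-group SD of the 10 genes (0.39 on the log2 scale, larger than for 88.3% of all genes tested). Its log2FC was -0.99 in WT (SE 0.27, adjusted p = 0.00958, limma) and -1.47 in Act (SE 0.30, adjusted p = 0.00294, limma). Relative to the median of all genes these values were -0.59 and -1.16. The WT call was lost with median-ratio scaling (log2FC -0.52), and both calls were lost with summed keratinocyte markers as a covariate (-0.28 and -0.57).

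Junb encodes a Jun protein that can replace or oppose c-Jun at AP-1 sites. It had 1300, 687 and 1016 RPKM in WT NS, 802, 834 and 781 RPKM in Act NS, 523, 593 and 641 RPKM in WT 5dw, and 452 and 647 RPKM in Act 5dw. No wound library reached the lowest unwounded one, but the gap between 647 and 687 RPKM was narrow. The log2FC of Junb was -0.73 in WT (SE 0.22, adjusted p = 0.0163, limma), -0.33 relative to the median of all genes, and -0.57 in Act (SE 0.25), where it did not pass (adjusted p = 0.0815, limma). Without WT NS library 1, which had the highest Junb value, the WT log2FC was -0.52 and was no longer called (adjusted p = 0.0607, limma). It was also not called without WT 5dw library 1 or without WT NS library 3.

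Atf3, a stress-induced member of the CREB/ATF family that pairs with Jun proteins, had 598, 560 and 461 RPKM in WT NS, 374, 552 and 467 RPKM in Act NS, 366, 412 and 387 RPKM in WT 5dw, and 444 and 360 RPKM in Act 5dw. WT NS and WT 5dw did not overlap, whereas Act NS and Act 5dw did. Its log2FC was -0.47 in WT (SE 0.17, adjusted p = 0.0367, limma) and -0.20 in Act (SE 0.19, adjusted p = 0.42, limma). Relative to the median of all genes the WT value was only -0.07, and the call was lost without any 1 of 5 of the 6 WT libraries (all but WT NS library 3), with adjusted p between 0.0576 and 0.109.

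When the 5 wound libraries were set against the 6 unwounded ones by their ranges, Fosl1, Fosl2 and Junb were lower in every 5dw library, and none of the 10 genes was higher in every 5dw library. Over all genes tested, 38.9% were lower in every 5dw library and 8.45% were higher.

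The genes most often used as markers of the immediate-early response were not called in either direction. In WT, the log2FC between 5dw and NS was -0.07 for Fos (95% interval -0.48 to 0.35), 0.06 for Fosb (-0.35 to 0.46), -0.13 for Jun (-0.60 to 0.34) and -0.19 for Egr1 (-0.57 to 0.19). It was -0.32 for Jund (-0.78 to 0.14) and 0.12 for Ier2 (-0.34 to 0.57), and none of these 6 genes passed the test. The intervals give the range of changes compatible with these data, with the spread between libraries estimated over all 11 libraries.

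Fosb, whose protein also occurs as a shorter splice form that these gene-level values cannot separate, had 1144, 750 and 785 RPKM in WT NS, 717, 804 and 761 RPKM in Act NS, 859, 863 and 1022 RPKM in WT 5dw, and 707 and 934 RPKM in Act 5dw. Egr1, a zinc finger factor and no AP-1 subunit, had 1152, 804 and 795 RPKM in WT NS, 773, 863 and 645 RPKM in Act NS, 786, 813 and 778 RPKM in WT 5dw, and 665 and 743 RPKM in Act 5dw. For both genes NS and 5dw overlapped within each genotype, and the highest library was WT NS library 1. Both Act 5dw libraries were below all 3 WT 5dw libraries for Egr1, as for 15.2% of all genes tested, and its log2FC between them was -0.17 (adjusted p = 1, limma).

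Jun, the main partner of Fos, had 971, 501 and 790 RPKM in WT NS, 535, 489 and 553 RPKM in Act NS, 619, 639 and 743 RPKM in WT 5dw, and 582 and 683 RPKM in Act 5dw. Ier2, a small nuclear protein of the immediate-early class, had 435, 234 and 344 RPKM in WT NS, 267, 256 and 267 RPKM in Act NS, 359, 354 and 350 RPKM in WT 5dw, and 277 and 378 RPKM in Act 5dw. Jund, the Jun gene that is usually expressed at a steady level, ranged from 192 to 387 RPKM over the 11 libraries. Jun and Ier2, like Fos, were higher in both Act 5dw libraries than in the 3 Act NS libraries, as were 14.4% of all genes tested, but their log2FC of 0.26, 0.30 and, for Fos, 0.34 did not pass the test.

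In Act mice 2 of the 10 genes, Fosl1 and Fosl2, were called lower in 5dw than in NS and none was called higher. Among all genes tested, 36.5% were called lower and 9.04% higher, with a median log2FC of -0.31. The count of 2 was thus below the background share of lower genes.

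**Figure D2:**
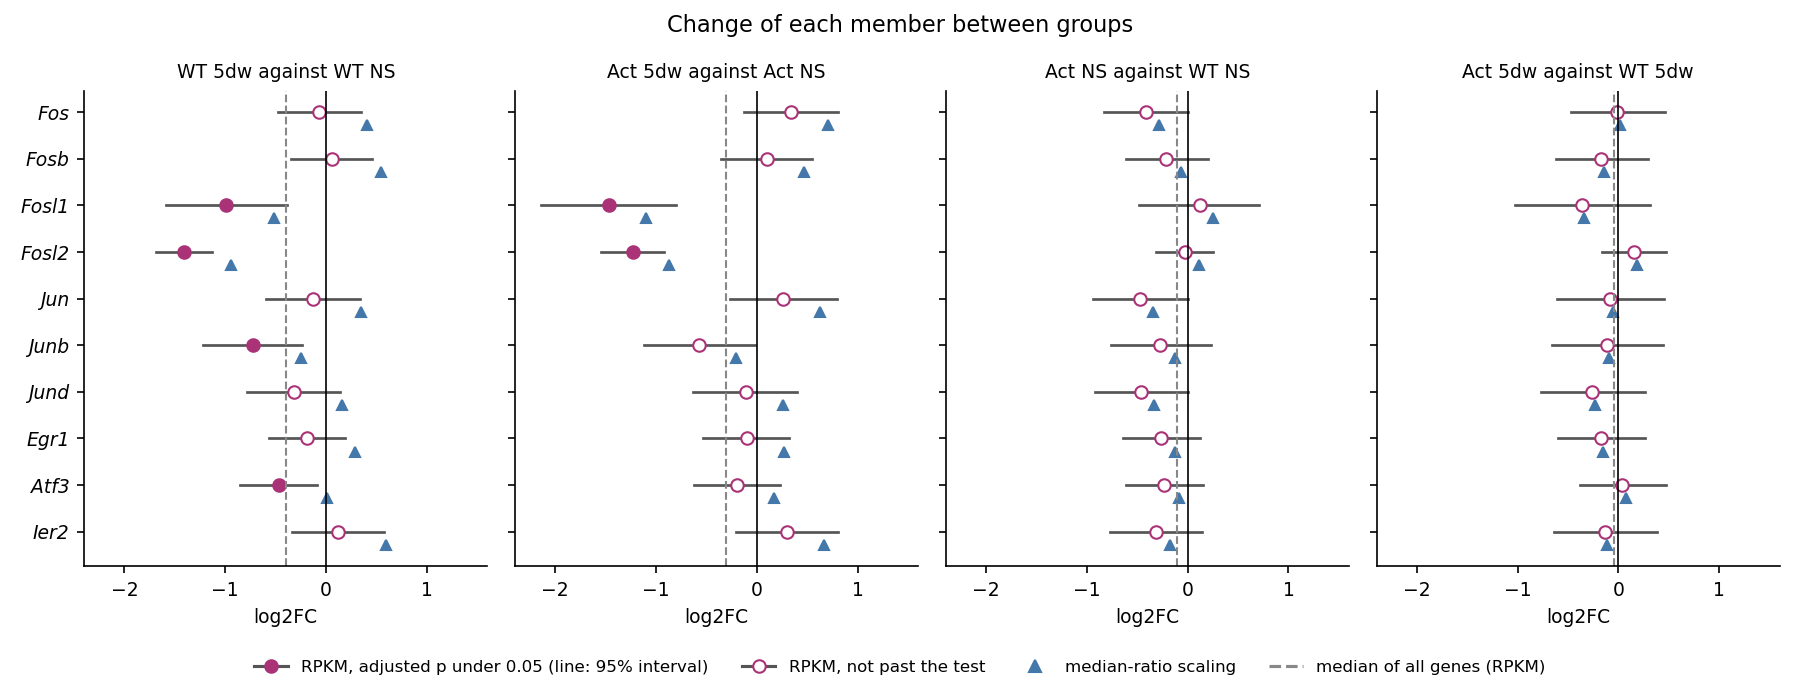
The log2FC of each gene (horizontal axes) in the comparisons of wounding within WT and Act and of genotype within NS and 5dw, with 95% intervals from limma on RPKM; filled points passed an adjusted p of 0.05, blue triangles are the values after median-ratio scaling and dashed lines mark the median of all genes. Fosl2 and Fosl1 lie farthest to the left of that median in both wounding comparisons, and all triangles there lie to the right of the RPKM values.

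The direction of the small changes depended on how the libraries were scaled. RPKM divides by the mapped reads of a library, and the wound libraries of this series had a lower median gene on that scale. When the libraries were scaled by the median ratio over genes, the median log2FC over all genes became 0.01 in both wounding comparisons, 23.4% of genes were called higher and 21.2% lower in WT, and 20.3% were called higher and 20.4% lower in Act. On this scale Fosl2 remained lower in WT with a log2FC of -0.94 (adjusted p = 0.000109, limma), while Fosl1 (-0.52, adjusted p = 0.106) and Junb (-0.25, adjusted p = 0.396) were not called and Atf3 turned to 0.01. Fosb (0.54, adjusted p = 0.0433, limma) and Ier2 (0.59, adjusted p = 0.0411, limma) were then called higher in WT. In Act, Fos (0.71, adjusted p = 0.0295, limma) and Ier2 (0.67, adjusted p = 0.0435, limma) were called higher, and Fosl1 (-1.10) and Fosl2 (-0.87) stayed lower. A lower level of Fosl2 in both comparisons and of Fosl1 in Act was thus called on both of these scales, whereas the other calls differed between them. Quantile normalization, under which the median log2FC over all genes was 0.00 in WT, called Fosl1 (-0.84, adjusted p = 0.0112, limma), Junb (-0.65, adjusted p = 0.041) and Atf3 (-0.44, adjusted p = 0.0245) lower in WT as RPKM did, and it did not call Fos, Fosb or Ier2 in either comparison.

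The make-up of the families shifted with wounding in a way that does not depend on library scaling, since the values are ratios within a library. Junb made up 47.3% to 54.2% of the summed RPKM of Jun, Junb and Jund in the 6 NS libraries and 36.7% to 41.2% in the 5 wound libraries, without overlap. The share of Jun was 31.8% to 36.8% in NS and 41.6% to 47.3% in 5dw, and that of Jund ranged from 14% to 17.8% in NS and from 14.4% to 19.8% in 5dw. The shares of a library add up to the whole, so the higher share of Jun is no separate result. The RPKM of Jun itself overlapped between NS and 5dw. The ratio of Junb to Jun was 1.34, 1.37 and 1.28 in WT NS and 1.5, 1.71 and 1.41 in Act NS, whereas in wounds it was 0.844, 0.927 and 0.863 for WT and 0.776 and 0.948 for Act. Junb therefore exceeded Jun in all NS libraries and stayed below it in all wound libraries. How many other gene pairs separate NS from 5dw in this way was not counted. Of single genes tested, 38.9% were lower in every 5dw library, Junb among them, and 8.45% were higher.

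Among the Fos genes, Fos and Fosb supplied nearly all of the RPKM, and the ratio of Fos to Fosb lay between 1.19 and 1.61 in all libraries. Fosl1 and Fosl2 together amounted to 4.3% to 11.3% of Fos plus Fosb in NS and to 2.49% to 3.19% in 5dw. The summed Jun genes were 0.745 to 1.03 times the summed Fos genes in NS and 0.625 to 0.748 times in 5dw, and these ranges overlapped. These shares are given as descriptions and were not tested.

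**Figure D3:**
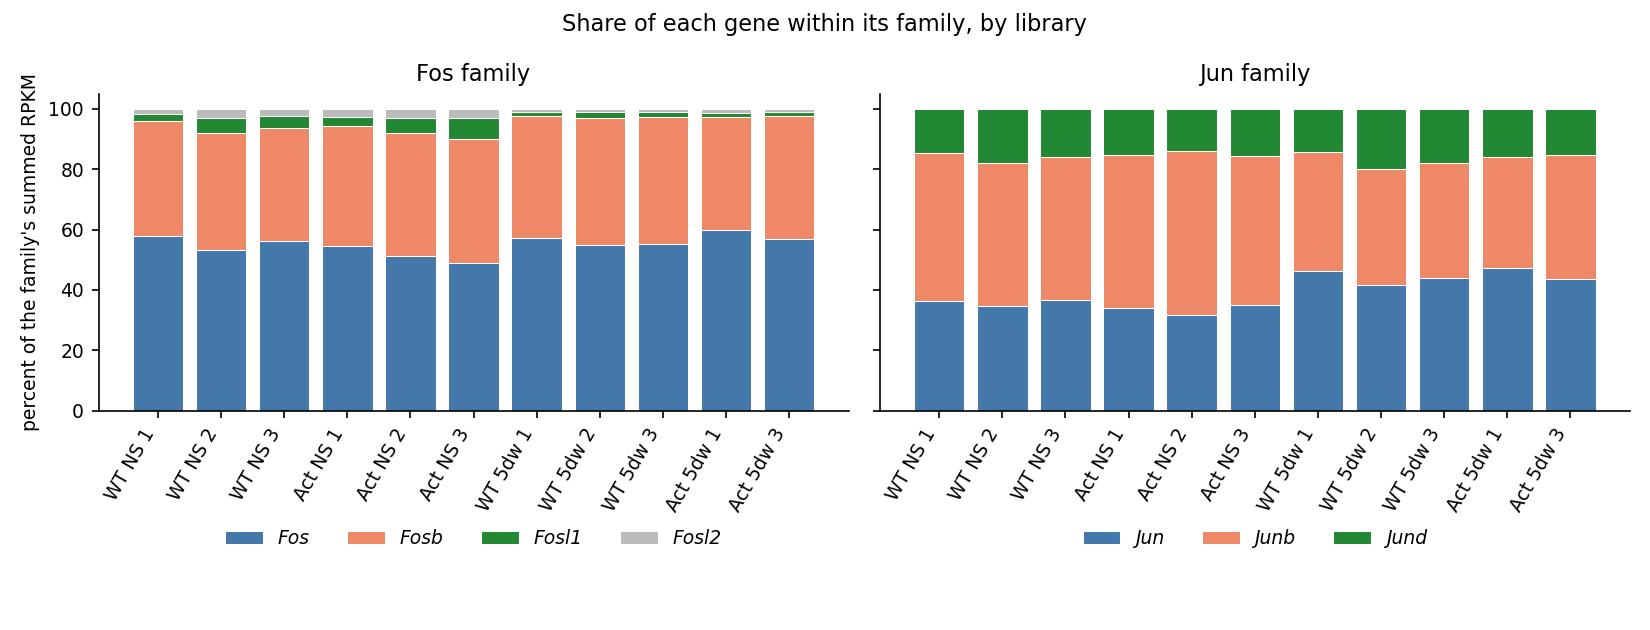
Share of each gene in the summed RPKM of the Fos family (left) and of the Jun family (right), in percent, with 1 bar per library. Junb is the larger part of the Jun family in the 6 NS libraries and Jun in the 5 wound libraries, and the Fosl1 and Fosl2 segments are thinner in 5dw than in NS.

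Transcripts of other skin cells changed with wounding as well. The summed RPKM of 14 keratinocyte markers was 1379, 2315 and 2525 in WT NS, 1374, 3339 and 5213 in Act NS, and in wounds it was 149, 287 and 1141 for WT and 304 and 362 for Act. Of these 14 markers, 12 were called lower in WT 5dw and 13 in Act 5dw. Krt10, a keratin of differentiated epidermis, ranged from 297 to 1685 RPKM in NS and from 9.29 to 31.9 RPKM in 5dw. Krt14, a basal keratin, was 528 RPKM in WT 5dw library 3, above all 6 NS libraries. Keratinocytes are known to make Fra-1, Fra-2 and JunB themselves.

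Over the 6 NS libraries, log2 Fosl1 followed the log2 keratinocyte sum with Pearson's r = 0.94 (exact permutation p = 0.00972, two-sided) and Spearman's rho = 0.83 (exact permutation p = 0.0583). The relation was computed for all 10 genes and, adjusted over these, the exact permutation p-values were 0.0972 and 0.583, so that it did not pass. Without the libraries farthest from the median, Act NS 1 and Act NS 3, r over the remaining 4 was 0.86, while for the other 9 genes it ranged from -0.92 (Fos) to 0.19 (Fosl2). For Fosl2, r was 0.41 (exact permutation p = 0.425), and for Junb it was -0.44 (exact permutation p = 0.382). The relation was looked for after the values of Fosl1 had been seen, and the permutation took the 6 libraries as exchangeable, although same-numbered WT NS and Act NS libraries deviated together and both measures were lowest in library 1 of each genotype.

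When the log2 keratinocyte sum was added to the fit as a covariate, an alternative also chosen after seeing the data, Fosl2 stayed lower in WT 5dw (log2FC -1.30, adjusted p = 0.00154, limma) and in Act 5dw (log2FC -1.09, adjusted p = 0.0161, limma). Fosl1 was then not called in WT (log2FC -0.28, adjusted p = 0.514, limma) or in Act (log2FC -0.57, adjusted p = 0.339, limma), and neither were Junb (-0.67 in WT) and Atf3 (-0.37 in WT). In this fit 22% of all genes were called lower in WT and 9.68% in Act. The sum itself differed between NS and 5dw, so that the covariate and wounding are not independent.

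**Figure D4:**
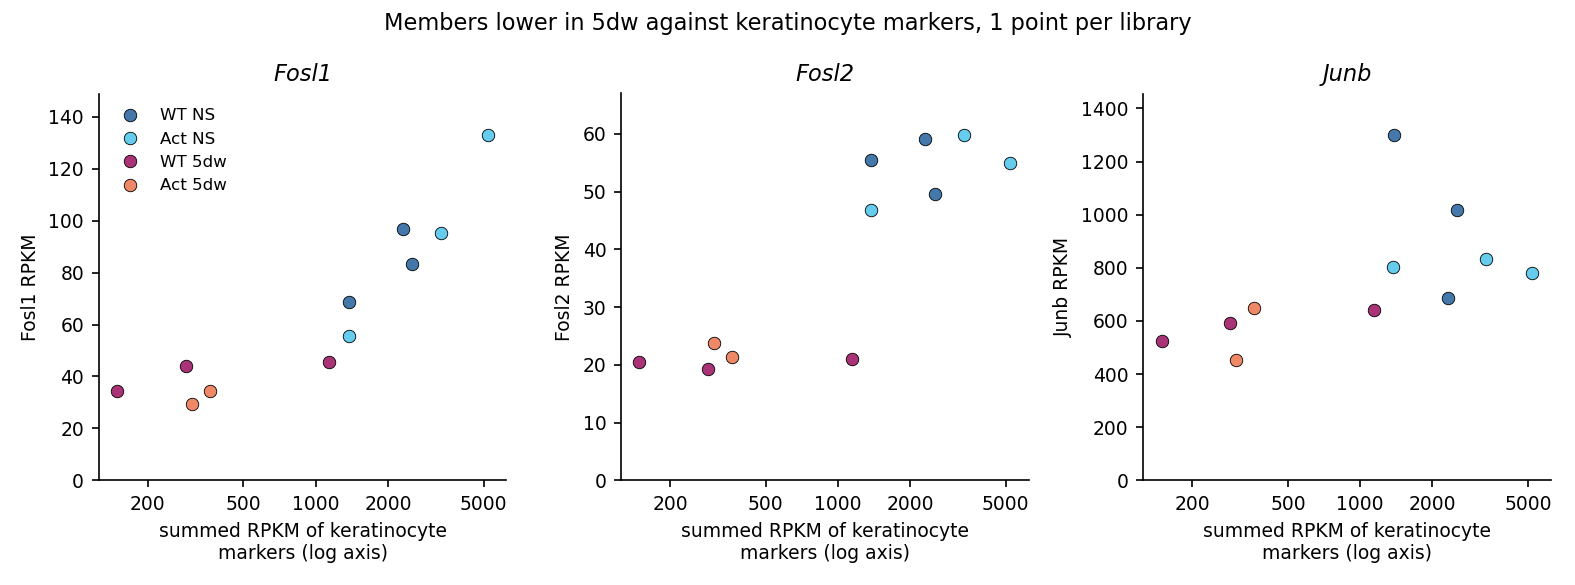
RPKM of Fosl1, Fosl2 and Junb (vertical axes) against the summed RPKM of 14 keratinocyte markers (horizontal log axes), with 1 point per library, coloured by group. Among NS libraries Fosl1 is highest where the markers are highest (133 RPKM at 5213), and Fosl2 stays between 46.8 and 59.8 RPKM. In WT 5dw library 3, with a marker sum of 1141, Fosl1 is at 45.4 RPKM and Fosl2 at 21 RPKM, both below all NS libraries.

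The other lists of non-fibroblast markers had lower sums than the keratinocyte list. Pdgfra, which encodes the sorted surface protein CD140a, had 49.8 to 65.3 RPKM in NS and 29.6 to 37.3 RPKM in 5dw. It was called lower in WT (log2FC -0.63, adjusted p = 0.0025, limma) and in Act (-0.80, adjusted p = 0.00182, limma). After median-ratio scaling it was called in Act (-0.43) but not in WT (-0.16). The 10 fibroblast markers summed to 12241 to 17906 RPKM in NS and 23453 to 26848 RPKM in 5dw, but their directions differed. In WT 3 were called higher and 4 lower, and in Act 3 and 3. Col1a1 had 2092 to 4709 RPKM in NS and 7761 to 10277 RPKM in 5dw, whereas Dcn had 3805 to 4825 and 1699 to 2048 RPKM. Ptprc, which encodes CD45, stayed at or below 0.0498 RPKM. The 9 immune markers found in the table summed to 17.8 to 55 RPKM in NS and 69.7 to 120 RPKM in 5dw. Most of the latter was Cd3e (55.5 to 105 RPKM). The labels name CD3 among the negative markers of the sort, whereas the methods of the study do not. Sums were 21.7 to 39.5 RPKM for 8 endothelial markers, 12.1 to 23.4 RPKM for 7 pericyte and smooth muscle markers, and low for 5 skeletal muscle markers (2.94 to 6.22 RPKM in NS and 1.81 to 2.44 RPKM in 5dw). For 5 Schwann cell markers the sum was 3.98 to 10 RPKM in NS and 0.573 to 0.825 RPKM in 5dw, without overlap. No marker was at 0 in every library. The part of these cells in the results was not tested.

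To ask whether activin changed these genes, Act was compared with WT in NS and in 5dw, and 0 of the 10 genes were called in either comparison. Over all genes, 0.0167% were called in NS and 0.0334% in 5dw by limma on RPKM. At an unadjusted p under 0.05 the counts over all genes were 824 and 386, with 0 of the 10 genes in both. Limma-voom on reads recovered from the RPKM values called 1 and 2 genes, again with 0 of the 10.

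In unwounded skin the log2FC was -0.47 for Jun (SE 0.22), -0.46 for Jund (SE 0.21) and -0.41 for Fos (SE 0.19), each with adjusted p = 0.701 in limma. Without WT NS 1 and Act NS 1 these values were -0.28, -0.36 and -0.21, and that of Fosl1 moved from 0.12 to 0.32. All 3 Act NS libraries were below all 3 WT NS libraries for Fos and Jund, as for 7.98% of all genes tested. In wounds the log2FC of Fosl1 was -0.36 (SE 0.30) and that of Fosl2 was 0.15 (SE 0.14), both with adjusted p = 1. The difference between the wounding responses of Act and WT passed for 0 of the 10 genes and for 0% of all genes in limma. With no adjustment, 400 genes had a p under 0.05 in the limma fit, 0 of the 10 among them, and limma-voom called 0.

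WT NS library 1 stood out for these genes. It had the highest value of the 3 WT NS libraries for 8 of the 10 genes, whereas it was highest for 29.6% of all genes tested, and the lowest value for Fosl1. WT NS library 2 was lowest for 6 of the 10 genes and for 41% of all genes tested. In Act 5dw, library 3 was higher than library 1 for 8 of the 10 genes, against 46.8% of all genes tested. Without WT NS 1 and Act NS 1 together, Fosl2 and Fosl1 were still called lower in WT 5dw, and Junb (log2FC -0.52, adjusted p = 0.064, limma) and Atf3 (-0.39, adjusted p = 0.0559, limma) were not.

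The similarity of profiles was measured as the root mean square distance between log2 values over the 11 libraries, each gene centred on its own mean. Of all 11979 genes, Fosb was the nearest to Fos (0.12), and Jun (0.14) and Ier2 (0.14) were the third and the sixth. The other nearest genes, Gfra4, Obsl1, H1fx, Slc43a1 and B930041F14Rik (0.12 to 0.15), had low levels of at most 8.61 RPKM in any library. Egr1 held place 58 with a distance of 0.18, Jund place 1331, Atf3 place 3394 and Junb place 5756, while the median distance to Fos over all genes was 0.42. Fosl2 and Fosl1 were far from Fos (0.78 and 0.81). The genes nearest to Fosl1 were Ccdc120, Slc19a2, Cpeb2, H2-Q10 and Wwc1 (0.13 to 0.16), and Fosl2 held place 600 there (0.34).

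Among 9 tested genes for other bZIP proteins of the AP-1 group, 2 were called higher and 4 lower in WT 5dw, with a median log2FC of -0.36, near the 48.8% of all genes called lower; with median-ratio scaling 3 were higher and 2 lower. Batf, which inhibits or redirects AP-1 in leukocytes, went from 5.77, 4.83 and 3.07 RPKM in WT NS to 10.3, 7.49 and 7.94 RPKM in WT 5dw (log2FC 0.87, adjusted p = 0.0113, limma). Of the small Maf genes, Mafk fell with a log2FC of -1.43 in WT and -2.01 in Act. Maff had one of -0.86 and -0.90, called on RPKM but not after median-ratio scaling (adjusted p = 0.206 and 0.127, limma), and Mafg one of -0.34 in WT, not called, and -0.54 in Act, called. Jdp2, a repressor that pairs with Jun, had a log2FC of 0.21 in WT and 0.52 in Act (adjusted p = 0.0512, limma), and Maf one of -0.36 in WT, neither called on RPKM. With median-ratio scaling Jdp2 was called higher in WT (0.68, adjusted p = 0.0093, limma) and in Act (0.89, adjusted p = 0.00475, limma).

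Of 41 tested other immediate-early genes, 12 were called higher and 8 lower in WT 5dw (median log2FC 0.06), where 9.45% of all genes were higher and 48.8% lower. In Act 5dw 11 were higher and 6 lower (median -0.06), beside 9.04% and 36.5% of all genes. With median-ratio scaling the WT counts became 23 higher and 3 lower, beside 23.4% and 21.2% of all genes. The Act counts became 14 higher and 3 lower, beside 20.3% and 20.4% of all genes. Ier3, which protects cells from apoptosis, had 213, 214 and 181 RPKM in WT NS and 648, 810 and 732 RPKM in WT 5dw (log2FC 1.85, adjusted p = 3.48e-05, limma). Ptgs2, the inducible cyclooxygenase, rose with a log2FC of 1.18 in WT and 1.22 in Act. Egr2 (0.81 and 1.06) and Egr3 (0.66 and 0.72), the closest relatives of Egr1, also rose in both, although Egr3 overlapped between Act NS and Act 5dw and was not called under 5 of the 24 alternatives in WT and 11 in Act. The values of Egr1 itself were -0.19 and -0.10.

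Sik1, a kinase gene driven by cAMP signals, was 35.2, 32.2 and 37.8 RPKM in WT NS and 7.82, 8.7 and 9.5 RPKM in WT 5dw (log2FC -1.96, adjusted p = 5.66e-06, limma). Zfp36, whose protein destabilises mRNAs of this class, had a log2FC of -0.46 in WT (adjusted p = 0.0492, limma), which was -0.06 relative to the median of all genes, 0.02 after median-ratio scaling, and not called under 16 of the 24 alternatives. Other genes of the class gave values that did not pass on RPKM: the WT log2FC was -0.03 for Klf4, 0.19 for Klf6, 0.12 for Myc, 0.03 for Btg2, -0.42 for Nr4a1 and -0.34 for Ccn1, which the table lists as Cyr61. With median-ratio scaling Klf4 (0.45), Klf6 (0.67), Myc (0.60) and Btg2 (0.51) were called higher in WT.

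Of 15 genes for MAP kinase phosphatases and Sprouty proteins, which restrain the kinases upstream of AP-1, 1 was called higher and 6 lower in WT 5dw and likewise in Act 5dw, near the 48.8% and 36.5% of all genes called lower. With median-ratio scaling 2 were higher and 6 lower in WT and 1 higher and 5 lower in Act, where 21.2% and 20.4% of all genes were called lower. Dusp4 was 2.99, 2.13 and 2.17 RPKM in WT NS and 14.4, 7.8 and 11.1 RPKM in WT 5dw (log2FC 1.96, adjusted p = 0.000113, limma). Dusp6, a MAP kinase phosphatase of the cytoplasm, fell with log2FC of -1.57 in WT and -1.94 in Act, and Spry4 with -1.87 and -1.69. Dusp1, the abundant phosphatase of the immediate-early class, had a log2FC of -0.25 and Spry2 of -0.01 in WT, neither called.

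Of 17 tested genes for the MAP kinase cascade and for factors that bind promoters of these genes, 1 was higher and 7 were lower in WT 5dw, no larger a share than the 48.8% of all genes called lower, and the median log2FC was -0.31. Srf was 19.3, 19.7 and 17 RPKM in WT NS and 11.1, 9.13 and 10 RPKM in WT 5dw (log2FC -0.86, adjusted p = 0.0117, limma). Creb1 (-0.88) and Mapk14, which encodes p38α (-0.76), fell too, and Elk3, a partner of SRF, rose (1.09). With median-ratio scaling 4 of the 17 were called higher and 1 lower, and Srf (-0.40) and Mapk14 (-0.31) were not called in WT.

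Genes known as targets of AP-1 went mostly the other way from Fosl1, Fosl2 and Junb. Of 12 such genes 8 were called higher and 2 lower in WT 5dw (median log2FC 1.72), beside 9.45% and 48.8% of all genes, and 8 were higher and 1 lower in Act 5dw (median 1.35), beside 9.04% and 36.5%. The list was written with earlier results of these libraries known and is no independent evidence of direction. Timp1, an inhibitor of matrix proteases, was 32.9, 64.9 and 35.3 RPKM in WT NS and 533, 684 and 809 RPKM in WT 5dw (log2FC 3.96, adjusted p = 1.01e-05, limma). Mmp3 (1.64), Mmp13 (3.64) and Mmp9 (4.00) rose in WT, although Mmp9 and Mmp13 were low in NS (at most 3.48 and 3.14 RPKM), where WT NS library 1 held the highest values. Plau, which encodes urokinase, had a log2FC of -0.71 (adjusted p = 0.0283, limma), and Ccnd1, which encodes cyclin D1, one of -2.12 (adjusted p = 6.9e-05, limma); after median-ratio scaling Plau (-0.23) was not called.

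**Figure D5:**
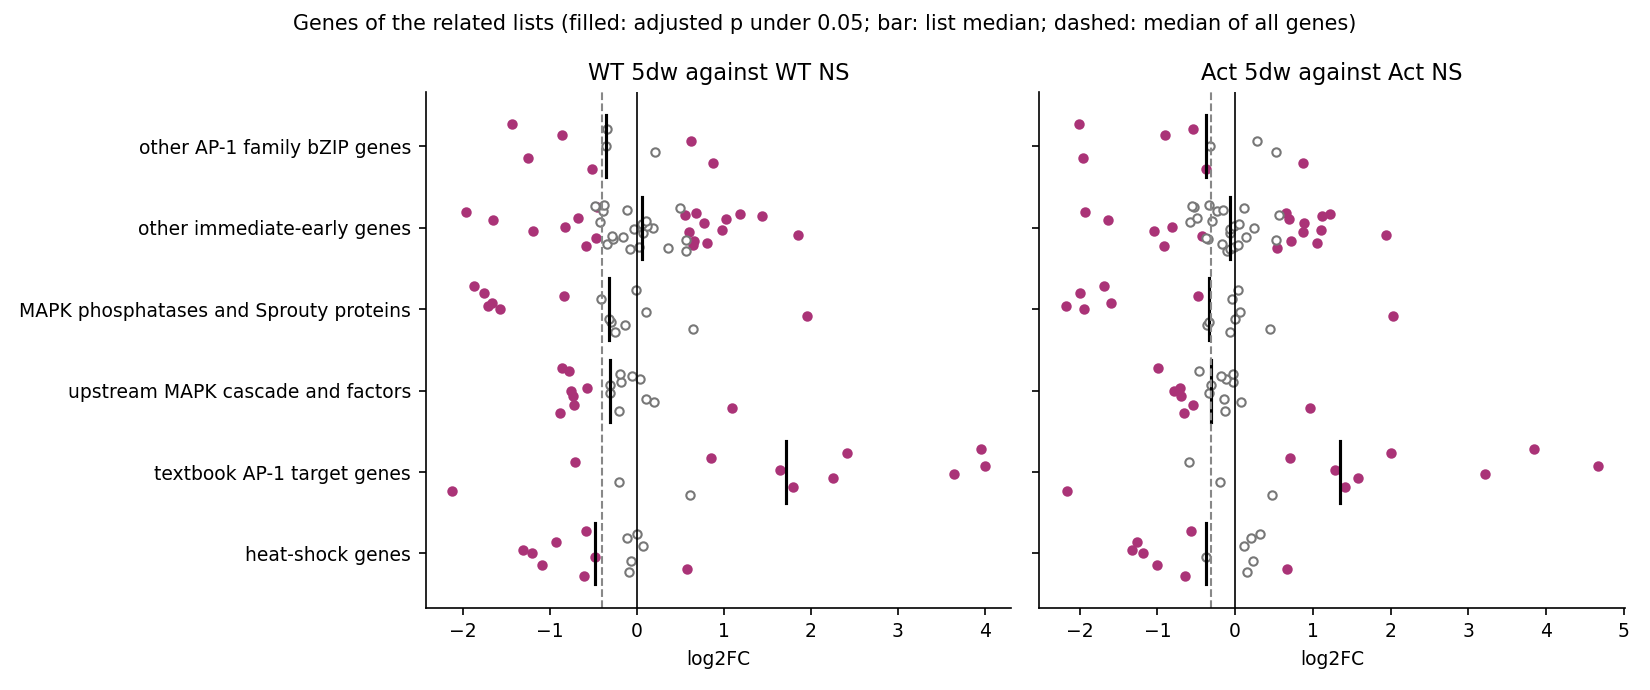
The log2FC between 5dw and NS in WT (left) and Act (right) for each tested gene of the 6 related lists; filled points passed an adjusted p of 0.05, black bars are list medians and dashed lines the median of all genes. The AP-1 target list has a median of 1.72 in WT and 1.35 in Act, while the other 5 lists have medians between -0.48 and 0.06 in WT.

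Heat-shock genes, which respond to stress of the proteins and also to tissue handling, gave 1 higher and 7 lower of 13 in WT 5dw. Over all genes 9.45% were higher and 48.8% lower, and the list median log2FC of -0.48 was close to that of all genes. In Act 5dw 1 was higher and 6 lower, beside 9.04% and 36.5% of all genes. With median-ratio scaling 4 were higher and 0 lower in WT, and 6 higher and 1 lower in Act. The shares of all genes were then 23.4% and 21.2% in WT and 20.3% and 20.4% in Act. Hspa1b was 689, 314 and 949 RPKM in WT NS and 215, 213 and 293 RPKM in WT 5dw, and its near-identical copy Hspa1a was 413, 195 and 458 RPKM and 132, 132 and 168 RPKM, so that reads may be divided between them. Dnajb1 rose with a log2FC of 0.58 in WT (adjusted p = 0.00998, limma), and Hspa8 had a log2FC of 0.07 that did not pass on RPKM but was called higher after median-ratio scaling (0.54, adjusted p = 0.00819, limma).

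The libraries held 18649323 to 39702138 mapped reads, as recovered from the RPKM values, and the 3 WT 5dw libraries were the deepest. The rarest value among the 10 genes, Fosl1 in Act 5dw library 1, rested on 1030 reads, so that counting error was small beside the spread between libraries.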

How the data were processed

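Back skin fibroblasts were profiled by polyadenylated RNA-seq (stranded, single-end, 100 bases). The authors mapped the reads to GRCm38 and computed RPKM in CLC Genomics Workbench; no source used here gives their handling of reads with several positions. The deposited table holds RPKM values per gene and library. The 10 genes and all gene lists were chosen with earlier results of these data known; genes outside the 10 were named from a list written by name, plus the highest and lowest log2FC of each list and the genes nearest to Fos and Fosl1. The values of 1 gene so named are not reported here.

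Genes with at least 1 RPKM in at least 2 libraries were tested with limma 3.58.1 (R 4.3.3) on log2(RPKM + 0.5) with a trend, 1 mean per group over all 11 libraries, and Benjamini-Hochberg adjustment over all 11979 genes (threshold 0.05). A log2FC on this scale understates the change of low genes. The edgeR test named in the submitters' processing notes takes counts and was not run on RPKM. Whole reads were recovered for 99.9% of tested genes (tolerance 0.03 reads) from the steps of low values, which gave the depth of each library and a limma-voom alternative. The fit was tested on simulated data. The 24 alternatives covered pseudocount, filter, scaling, trend, weights, replicate block, samples and a keratinocyte covariate.

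Deviations from group means correlated between same-numbered WT NS and Act NS libraries (0.55, 0.42 and 0.33) and between same-numbered WT NS and WT 5dw libraries (0.19, 0.12 and 0.11), so that the numbers of the labels were taken to pair these groups; the labels do not say what a number marks. For Act 5dw the correlations were 0.02 and 0.14 with Act NS and -0.08 and 0.19 with WT 5dw. Libraries were pools of 3 animals, so that p-values measure the spread between pools. Promoter sequences came from RefSeq and were matched by symbol.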

Additional observations from a re-analysis of the deposited data

How the results depend on the processing

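The count of 4 of the 10 genes called in WT 5dw against WT NS became 2 (Fosl1 and Fosl2) with no filter on low values, where many more genes share the adjustment, and 2 without WT NS 1 and Act NS 1 together. It became 1 (Fosl2) with the keratinocyte markers as a covariate, as did the count of 2 in Act. Leaving out 1 library at a time gave 2 to 4 in WT, with 2 without WT NS 1 or without WT 5dw 1, and 2 to 3 in Act. The count in Act became 4 with median-ratio scaling, under which the WT log2FC of Atf3 was 0.01; the cause was not tested. The replicate block left 4, 2, 0, 0 and 0 genes called in the 5 comparisons and changed no call of the 10 genes. The sign of a value that was not called turned in 63 cases, 19 calls of single genes were lost and 7 were gained. Each of the 10 genes rested on 1030 or more reads in every library.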
